A study of Mus musculus with 6 samples.

Results

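The 9 genes described here write, maintain or erase methyl groups on cytosine in DNA, or make a cofactor of the erasing enzymes. They were taken by symbol (Dnmt1, Dnmt3a, Dnmt3b, Uhrf1, Tet1, Tet2, Tet3, Idh1 and Idh2), and all 9 were found among the 23306 rows of the deposited table that carry a gene identifier. RNA with polyA tails had been sequenced from isogenic T-cell acute lymphoblastic leukaemia (T-ALL) of C57BL/6 mice, as tumour from bone marrow. There were 3 libraries labelled Phf6-WT (wild type) and 3 labelled Phf6-KO (knockout). PHF6 is a nuclear protein with PHD-like zinc fingers, and its gene is often mutated in human T-ALL. In the knockouts an inducible Cre recombinase, activated by intraperitoneal tamoxifen, deletes Phf6, and corn oil served as the vehicle. Which library received which injection, the promoter that drives Cre, the event that started the leukaemia and the age of the mice are left unsaid by the labels. Tamoxifen and loss of Phf6 therefore cannot be told apart. The labels also do not name separate animals within a group, so p-values measure only the spread between these libraries, which may be technical.

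DNMT3A and DNMT3B place methyl groups on unmethylated CpG sites. DNMT1 copies the pattern to the new strand after replication, and UHRF1 recognises hemimethylated CpG and brings DNMT1 to it. The TET enzymes oxidise 5-methylcytosine to 5-hydroxymethylcytosine and further, using iron and 2-oxoglutarate, and the oxidised bases are lost at replication or cut out by the glycosylase TDG. IDH1 in the cytosol and IDH2 in mitochondria make 2-oxoglutarate from isocitrate. DNMT3A, TET2, IDH1 and IDH2 are recurrently mutated in human blood cancers.

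The libraries held 46067511 to 54953145 reads in genes. Levels are given as normalised reads, which are reads divided by a scaling factor of the library, and 3 values of a group are always in the order of library numbers 1, 2 and 3. The targeted gene Phf6 had 4240 to 5508 normalised reads in wild type and 1755 to 2337 in knockout (log2 fold change -1.34, SE 0.13, adjusted p 0.00184 in limma), a ratio of 0.395. Reads were summed over the whole gene and the deleted part is not given, so this shows a lower level in each knockout library and not the state of the allele. T-lineage identity was checked with 24 markers, of which 23 were in the table and tested. Their sum was 9671 to 9983 CPM (counts scaled by library size) in wild type and 8376 to 9363 CPM in knockout. The sum was thus lower in every knockout library. Among the 23 markers 3 fell and none rose, in limma and in edgeR alike, and DESeq2 called 4 lower and 0 higher. At an unadjusted p under 0.05, 7 were lower and 0 higher, beside 20.4% lower among genes with a mean of at least 1000 normalised reads. Tcf7 was at -0.49 and Trbc2 at 0.04 on the log2 scale. Over 17993 tested genes limma called 957 higher and 618 lower at an adjusted p under 0.05, which is 8.75% in either direction. Scaling by library totals gave 1217 higher and 300 lower, and a filter at 1 CPM gave 717 and 608. The total of 1575 calls became 191 without knockout library 3, 464 without wild-type library 1, 665 without wild-type library 3, 873 without knockout library 2 and 958 without knockout library 1.

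Tet2 was the 1 member of 9 that passed the test, and it rose about 2-fold in the knockout libraries. Over all tested genes 5.32% were called higher and 3.43% lower, so the members' count is near the background and the result concerns Tet2 alone. Among 9581 genes with a mean of at least 400 normalised reads, the level range that holds the members, 8.36% were called, 2.82% higher and 5.54% lower. No member fell in limma, while 1 (Dnmt1) was lower at an unadjusted p under 0.05, a level at which 12.5% of all tested genes were lower and 12.7% higher. edgeR called 1 member higher and 0 lower, against 5.2% and 2.55% of all genes, and DESeq2 called 1 lower, against 5.03%. All 9 members passed the filter on low values in every library, since the lowest count of any of them was 488 reads. Their median log2 fold change was -0.14, beside -0.01 over all tested genes and -0.07 over the 7587 genes with a mean of at least 1000 normalised reads, of which 64.3% had a negative value.

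**Figure D1:**
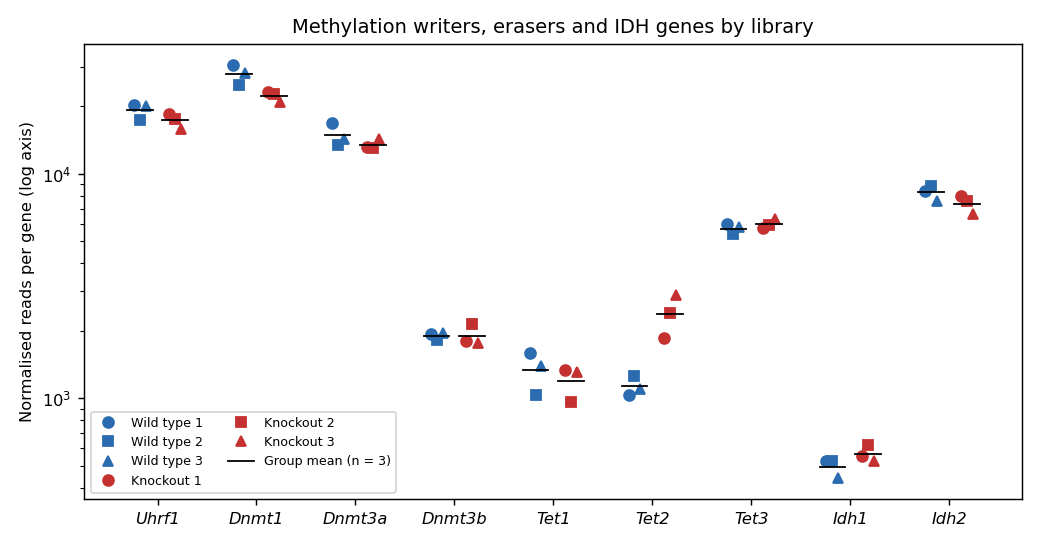
Normalised reads per gene, on a log axis, of the 9 genes in each of the 6 libraries, with wild type in blue, knockout in red, the marker shape giving the library number and black bars the group means (n = 3 each). The groups stand clear of each other for Tet2, from 1030 to 1257 reads in wild type and 1853 to 2883 in knockout, and narrowly for Dnmt1 and Idh1.

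Tet2 (ENSMUSG00000040943; GRCm38 chromosome 3, 133463679 to 133545139, minus strand, protein coding) encodes a TET enzyme without a CXXC domain of its own that is prominent in blood cells. Its RefSeq start lies in a very CpG-rich stretch, shown here because this gene carries the change. The 250 bases before the start (RefSeq, GRCm38.p6, chr3:133544391-133544640, minus strand) held 51 CpG and 83.6% G or C. That CpG count is above 99.9% of 32851 such windows, whose median was 6. Capitals mark the GC box, GGGCGG read on either strand, which 32.7% of all windows hold. The letters repeat, with a run of 43 bases present 2 times, and the single GC box stands near the start.

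Tet2: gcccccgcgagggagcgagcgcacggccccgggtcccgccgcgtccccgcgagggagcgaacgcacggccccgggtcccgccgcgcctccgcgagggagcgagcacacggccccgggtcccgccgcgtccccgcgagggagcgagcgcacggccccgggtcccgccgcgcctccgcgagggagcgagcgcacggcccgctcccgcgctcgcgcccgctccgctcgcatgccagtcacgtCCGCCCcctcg

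The windows of the other members held from 2 CpG (the first of 3 starts of Dnmt1) to 40 (the second of 3 starts of Dnmt3a). All 9 members matched a RefSeq window by symbol, and gene-level reads do not tell which start was used.

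The wild-type libraries had 1030, 1257 and 1104 normalised reads of Tet2, and the knockout libraries had 1853, 2395 and 2883. Every knockout library lay above every wild-type library, and knockout library 3 was the highest. The means were 1131 ± 116 and 2377 ± 516 (SD, n = 3 each), a ratio of 2.07. In limma the log2 fold change was 1.05 (SE 0.15, 95% interval 0.70 to 1.40, adjusted p 0.00603), and edgeR gave an adjusted p of 0.00931. Leaving out each of the 6 libraries in turn kept the call in limma, with log2 fold changes of 0.90 to 1.22 and adjusted p of 0.00442 to 0.0417, the weakest without knockout library 3. In these fits 2.12%, 6.5% and 2.79% of all genes were called higher without wild-type libraries 1 to 3, and 3.49%, 3.04% and 0.766% without knockout libraries 1 to 3. Groups free of overlap were found for 3 of 9 members (Tet2 and Idh1 higher, Dnmt1 lower), against 31.2% of all tested genes, 15% higher and 16.2% lower.

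Of 10 annotated transcripts that overlap a member, 2 touch its exons, both antisense. One is Gm42567 at Tet2, and because the strand setting of the counting is unknown here, its reads cannot be told apart from those of Tet2. The other is Dnmt3aos at Dnmt3a, with 3 to 11 reads per library. The overlapping genes with a row in the table had at most 37 reads.

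The other erasers did not pass the test. Tet3, the most abundant TET transcript here, had 5962, 5367 and 5769 normalised reads in wild type and 5748, 5905 and 6313 in knockout. The groups overlapped (log2 fold change 0.07, SE 0.08, 95% interval -0.11 to 0.25, adjusted p 0.628 in limma). Tet1, the TET enzyme best known from embryonic stem cells, had 1598, 1033 and 1395 reads in wild type and 1331, 962 and 1308 in knockout. Library 2 was the lowest of each group, and the difference (log2 fold change -0.15, SE 0.18, 95% interval -0.57 to 0.26, adjusted p 0.655 in limma) was smaller than the spread within either group. Both intervals leave out a 2-fold change in either direction.

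**Figure D2:**
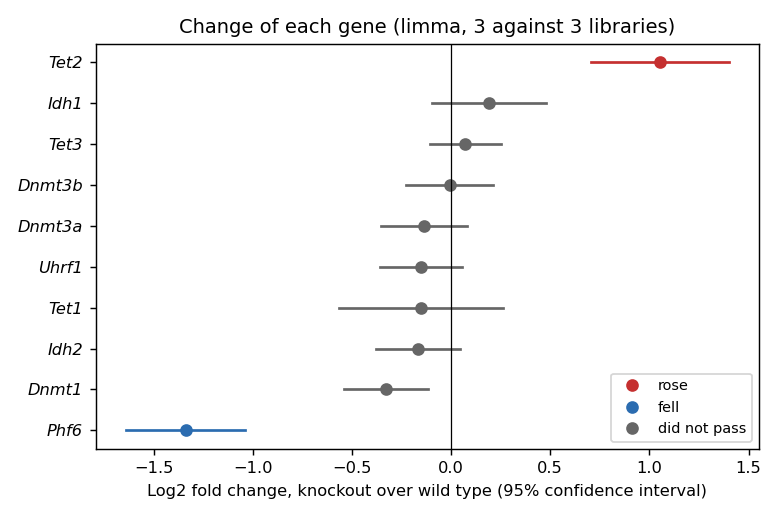
Log2 fold changes (knockout over wild type, limma, 3 against 3 libraries) of Phf6 and the 9 genes, where horizontal bars are 95% confidence intervals. Tet2 lies at 1.05 and Phf6 at -1.34, and the other 8 genes lie between -0.33 for Dnmt1 and 0.19 for Idh1.

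Among the writers the maintenance enzyme differed most, without passing the test. Dnmt1 (ENSMUSG00000004099; GRCm38 chromosome 9, 20907209 to 20959888, minus strand) had 30599, 24907 and 28116 normalised reads in wild type and 23083, 22540 and 20786 in knockout. All 3 knockout values lay under all 3 wild-type values. The means were 27874 ± 2854 and 22136 ± 1201 (SD, n = 3 each), with a log2 fold change of -0.33 (SE 0.09, 95% interval -0.54 to -0.12, adjusted p 0.0597 in limma). DESeq2 called Dnmt1 lower (adjusted p 0.0305) and edgeR did not (adjusted p 0.0779). Without wild-type library 2 limma called it lower too (adjusted p 0.0211, with 4.4% of all genes called lower), and over the 6 fits that left out a library its adjusted p ran from 0.0211 to 0.231.

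Uhrf1, the partner that brings DNMT1 to replicated DNA, had 20182, 17385 and 20059 reads in wild type and 18457, 17524 and 15842 in knockout. The groups overlapped (log2 fold change -0.15, SE 0.09, 95% interval -0.36 to 0.06, adjusted p 0.348 in limma). Per kilobase, the level of Dnmt1 over that of Uhrf1 was 0.875, 0.827 and 0.809 in wild type and 0.722, 0.743 and 0.757 in knockout. This ratio was lower in every knockout library.

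Dnmt1 and Uhrf1 hold a word of E2F proteins, factors of S-phase genes, that was not found in the windows of the other members. TTTCGCGC, TTTGGCGC, TTTCCCGC and TTTGCCGC were searched on both strands, and 1.86% of the 32851 windows hold at least 1 of them. In both genes the word was TTTCGCGC, on opposite strands relative to the gene. For Dnmt1 it starts 219 bases before the third RefSeq start and within an annotated exon, so 30 bases are shown (chr9:20952824-20952853, minus strand). For Uhrf1 it starts 185 bases before the second start, and the 250 bases before that start are shown (chr17:56304063-56304312, plus strand). Both come from RefSeq, GRCm38.p6, and capitals mark the E2F word and, in Uhrf1, 3 GC boxes. A match describes letters and is no evidence of binding.

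Dnmt1: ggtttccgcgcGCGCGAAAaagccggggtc
Uhrf1: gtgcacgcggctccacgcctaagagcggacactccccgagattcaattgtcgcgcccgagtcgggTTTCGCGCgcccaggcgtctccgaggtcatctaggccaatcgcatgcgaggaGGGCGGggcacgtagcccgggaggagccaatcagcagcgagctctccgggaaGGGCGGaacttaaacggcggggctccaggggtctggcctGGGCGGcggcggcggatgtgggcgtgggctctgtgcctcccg

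Genes of the G1/S transition, the step into DNA replication, were set beside these genes. Of 44 tested 4 fell and none rose, with a median of -0.16 on the log2 scale, and 41 of the 44 values were negative. At an unadjusted p under 0.05, 17 were lower and 0 higher, beside 20.4% lower among genes with a mean of at least 1000 normalised reads. edgeR called 3 lower and DESeq2 6, and neither called any higher. The MCM helicase subunit genes Mcm2, Mcm6 and Mcm5 fell by 0.45, 0.38 and 0.37, and Pola1, for the catalytic subunit of DNA polymerase alpha, by 0.49. Of these calls only that of Mcm2 held when libraries were scaled by their totals, and edgeR did not call Mcm6 (adjusted p 0.0527). The list summed to 6367, 6072 and 6287 CPM in wild type and 5432, 5962 and 4861 CPM in knockout. As a percent of these summed reads Dnmt1 was at 9.65, 8.24 and 9.08 in wild type and 8.65, 7.70 and 8.80 in knockout, with overlap. Uhrf1 was at 6.36, 5.75 and 6.48 percent in wild type and 6.91, 5.98 and 6.71 percent in knockout, also with overlap. Whether the level of G1/S genes has a part in the Dnmt1 values was not tested.

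The de novo enzymes differed little between the groups. Dnmt3a had 16853, 13465 and 14295 normalised reads in wild type and 13128, 12977 and 14313 in knockout. Wild-type library 1 stood above the other 5 libraries (log2 fold change -0.14, SE 0.10, 95% interval -0.36 to 0.08, adjusted p 0.424 in limma). Dnmt3b had 1939, 1825 and 1950 reads in wild type and 1804, 2139 and 1766 in knockout, so both extremes were knockout libraries. Its log2 fold change was -0.01 (SE 0.10, 95% interval -0.23 to 0.21, adjusted p 0.977 in limma), and its sign varied between settings.

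The isocitrate dehydrogenases did not pass either. Idh1 had 525, 525 and 441 normalised reads in wild type and 556, 619 and 528 in knockout. Its groups lay next to each other without overlap (log2 fold change 0.19, SE 0.13, 95% interval -0.10 to 0.48, adjusted p 0.393 in limma). Idh2 had 8400, 8840 and 7560 reads in wild type and 7927, 7546 and 6634 in knockout, with overlap (log2 fold change -0.17, SE 0.10, 95% interval -0.38 to 0.05, adjusted p 0.313 in limma). Per kilobase the mitochondrial enzyme exceeded the cytosolic one by 17.8 ± 0.62 times in wild type and by 13.9 ± 1.18 times in knockout (SD, n = 3 each), and every knockout library had the smaller ratio.

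Levels were compared between genes as normalised reads per kilobase of merged exons. The means over all 6 libraries, in falling order, were 4283 for Uhrf1, 3390 for Dnmt1, 3021 for Idh2, 852 for Dnmt3a, 373 for Dnmt3b, 350.0 for Tet3, 192 for Idh1, 104 for Tet2 and 82.2 for Tet1. The maintenance genes and Idh2 stood clear of all the others. Uhrf1 lay above 96.6% and Tet1 above 27.6% of the tested protein-coding genes. Ranges over libraries overlapped between Uhrf1 and Dnmt1, Dnmt1 and Idh2, Dnmt3b and Tet3, Idh1 and Tet2, and Tet2 and Tet1. With the longest transcript as the length, Idh2 came before Dnmt1 and Tet3 before Dnmt3b.

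The mix of TET transcripts differed between the groups. Per kilobase, Tet2 made up 11.7%, 16.1% and 13.1% of the TET sum in wild type and 20.3%, 25.4% and 27.0% in knockout. Tet3 was the larger part throughout, at 68.5%, 69.5% and 68.9% in wild type and 63.7%, 63.4% and 59.7% in knockout. The Tet2 part was larger and the Tet3 part smaller in every knockout library, while Tet1 held 14.4% to 19.8% in wild type and 11.2% to 15.9% in knockout, with overlap. In wild type the mean of Tet1 was above that of Tet2 (86.8 ± 18.5 and 67.0 ± 6.87 reads per kilobase; SD, n = 3 each) and in knockout it was below (77.6 ± 13.4 and 141 ± 30.6). With the longest transcript as the length Tet2 was the higher in both groups, at 123 against 93.4 in wild type and 259 against 83.5 in knockout.

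Among the DNMT genes the mix differed less. Dnmt1 made up 74.9%, 74.3% and 75.4% of the DNMT sum in wild type and 73.3%, 71.8% and 70.0% in knockout. The DNMT sum was 10.6, 9.81 and 10.1 times the TET sum in wild type and 7.91, 7.63 and 6.35 times in knockout, lower in every knockout library. These shares and ratios are descriptions without a test.

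**Figure D3:**
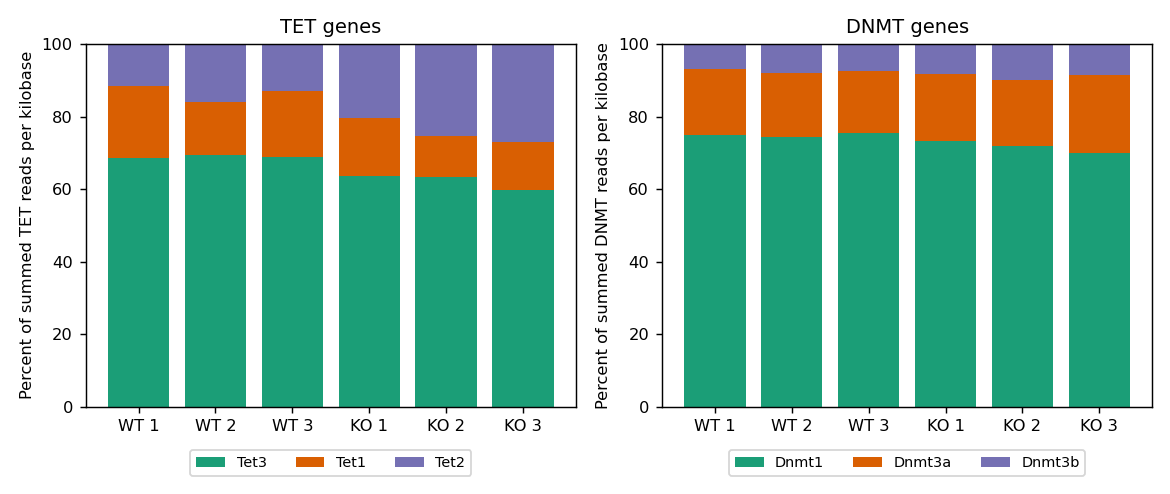
Stacked bars of each gene's percent of the summed reads per kilobase of its family, for the 3 TET genes on the left and the 3 DNMT genes on the right, in wild-type (WT) and knockout (KO) libraries. The Tet2 part is at most 16.1% in wild type and at least 20.3% in knockout, while Dnmt1 holds 70.0% or more of the DNMT level in every library.

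The summed markers of myeloid cells were higher in every knockout library, as Tet2 was. In bulk samples more cells of a type and more RNA per cell cannot be told apart. Limma called 5.32% of all tested genes higher and 3.43% lower. Of 24 neutrophil and granulocyte markers, all tested, 11 rose and none fell in limma, and edgeR and DESeq2 called 21 and 22 higher and 0 lower. Their sum was 161, 579 and 257 CPM in wild type and 1561, 1678 and 1285 CPM in knockout, and none was at 0 in any library. Every knockout library was above every wild-type library, and wild-type library 2 was the highest of its group. The most abundant of these markers, Ngp and S100a9, had log2 fold changes of 2.54 and 2.25 without passing in limma (adjusted p 0.0806 and 0.0913), and Mpo, the peroxidase of granulocyte precursors, rose by 2.95. Of 19 tested monocyte and macrophage markers 7 rose and none fell in limma (9 and 0 in edgeR), with sums of 82.1 to 156 CPM in wild type and 213 to 352 CPM in knockout. Lyz2 (1.98) did not pass.

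Tet2 itself was at 20.7, 25.2 and 22.4 CPM in wild type and 37.7, 48.8 and 59.3 CPM in knockout. Wild-type library 2 was the highest wild-type library in Tet2 and in the neutrophil sum. Knockout library 3 was the highest in Tet2 and the lowest knockout library in the neutrophil sum. The monocyte and macrophage sum was 103, 156 and 82.1 CPM in wild type and 213, 352 and 283 CPM in knockout. Library 2 was thus the highest of each group in that sum, and knockout library 1 was the lowest knockout library, as in Tet2. Whether myeloid RNA has a part in the rise of Tet2 was not tested.

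Markers of other cells moved as well. Of 17 tested B-cell markers 10 rose and 2 fell, among them Pax5 upward by 2.71, with 4.83 ± 1.06 normalised reads in wild type and 45.8 ± 19.8 in knockout (SD, n = 3 each), and the abundant Ighm downward by 0.51. Rag1 was at -1.81 without passing (adjusted p 0.119 in limma). The B-cell sum was 416 to 534 CPM in wild type and 275 to 367 CPM in knockout, and Ebf1, Ms4a1 and Rag2 were at 0 in at least 1 library. Of 7 tested stromal and endothelial markers Pdgfrb rose by 0.40 and Col1a1 fell by 1.21, Col1a2 (0.49) did not pass, and Col3a1 was at 0 in at least 1 library. Their sum was 1219.7 to 1258 CPM in wild type and 1503 to 1837 CPM in knockout. Most of it came from Pdgfrb, Col1a2 and Pecam1, with means of 786, 507 and 142 CPM over the 6 libraries. The means of Col1a1, Cxcl12, Sparc and Bgn were 1.70, 0.53, 0.21 and 0.19 CPM, so the sum says little about these markers. None of 14 erythroid markers passed in limma or edgeR (1 higher at an unadjusted p under 0.05, 1 in DESeq2), with Hbb-bs at 0.61 and Tfrc at -0.13. Of the 14 log2 fold changes 12 were positive and 2 negative. The sums overlapped, at 379 to 466 CPM in wild type and 346 to 405 CPM in knockout. Tfrc made up most of this sum, with a mean of 381 CPM over the 6 libraries beside 2.91 CPM for Hbb-bs. The part of these other markers in the members' values was not tested.

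**Figure D4:**
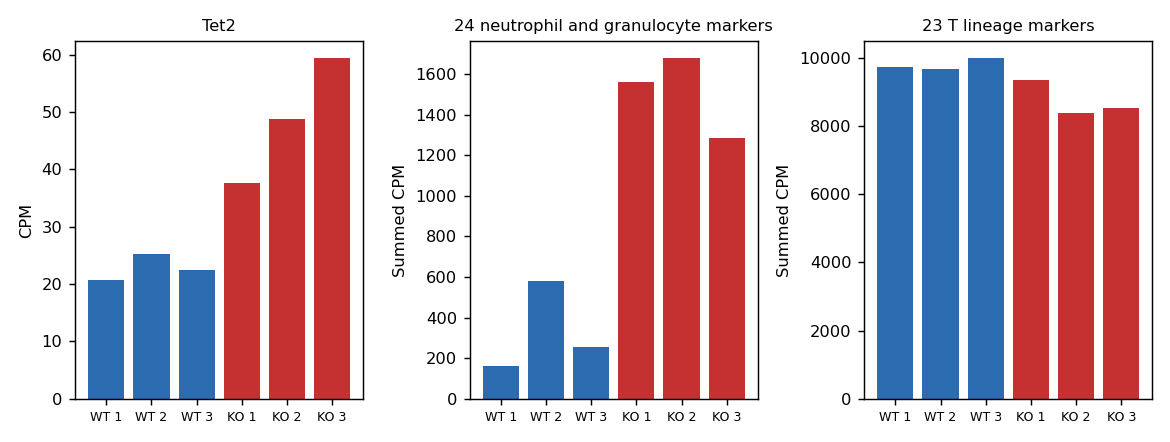
Bars of CPM in each library for Tet2 (left), the sum of 24 neutrophil and granulocyte markers (middle) and the sum of 23 T-lineage markers (right), with wild type in blue and knockout in red and axes from 0. Tet2 runs from 37.7 to 59.3 CPM in knockout and the neutrophil sum from 1285 to 1678 CPM, with library 3 at opposite ends of the knockout order.

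Genes with a pattern like that of Tet2 were sought among 7225 named protein-coding genes with a mean of at least 1000 normalised reads. Over the 6 libraries the highest Pearson correlations of log2 values were with Taf4b (0.991), Yipf6 (0.988) and Lrp1 (0.988), a description, since the points fall into 2 groups and share their libraries. Lrp1, an endocytic receptor gene, rose by 0.73 on the log2 scale and Yipf6 by 0.43. Taf4b, for a subunit of the basal factor TFIID, was at 0.24 without passing (adjusted p 0.116 in limma). The nearest tested protein-coding neighbours of Tet2 did not pass. Ppa2, 85.4 kb away, was at 0.04 (SE 0.09, adjusted p 0.828 in limma) and Cenpe, the nearest on the other side but 1667 kb away, at -0.27 (SE 0.16, adjusted p 0.323 in limma).

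Partners of TET enzymes gave 2 further rises. Of 8 tested, 2 rose and none fell in limma, edgeR and DESeq2, with a median of -0.09, and none was lower at an unadjusted p under 0.05. Over all tested genes limma called 5.32% higher. Mgea5, for the O-GlcNAcase that removes the sugar mark placed by the TET partner OGT, had 8004 ± 676 normalised reads in wild type and 11680.1 ± 730 in knockout (SD, n = 3 each; log2 fold change 0.55, SE 0.09, adjusted p 0.00782 in limma). Ogt itself was at -0.11. Spi1, for the myeloid and B-cell factor PU.1, had 142 ± 81.4 reads in wild type and 641 ± 89.2 in knockout (log2 fold change 2.29, SE 0.34, adjusted p 0.00964 in limma), and it rose beside the myeloid markers. Hcfc1 (-0.18) and Dcaf1 (-0.20) did not pass.

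Partners of the writers gave 1 call in limma, as lower, a count near the background. Limma called 3.43% lower over all tested genes and 5.54% among genes with a mean of at least 400 normalised reads. None of 10 maintenance partners passed in limma, edgeR or DESeq2, and their median was -0.13. At an unadjusted p under 0.05, 5 were lower, beside 20.4% lower among genes with a mean of at least 1000 normalised reads. Cdca7 (-0.28), Lig1 (-0.26), Hdac2 (-0.26) and Hdac1 (-0.20) had the smallest p. Hells, for the remodeller that works with CDCA7, was at 0.06. Of 15 tested de novo and targeting partners 1 fell and none rose, in limma, edgeR and DESeq2. This was Trim28, for the corepressor KAP1, with 39932 ± 1183 normalised reads in wild type and 31729 ± 2297 in knockout (SD, n = 3 each; log2 fold change -0.33, SE 0.08, adjusted p 0.0369 in limma). Setdb1, for the histone methyltransferase that KAP1 recruits, was at -0.18, Nsd3 at -0.17 and Nsd1 at 0.20, none of them past the test.

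Readers of methylated and unmethylated CpG gave 1 call in limma, as lower. Limma called 3.43% lower over all tested genes and 5.54% among genes with a mean of at least 400 normalised reads. None of 10 methyl-CpG readers passed in limma or edgeR (2 were lower at an unadjusted p under 0.05, and DESeq2 called 1 lower), with Mbd3 at -0.32, Mbd4 at -0.28, Zbtb33 at -0.09 and Zbtb38 at 0.19. Of 7 binders of unmethylated CpG, which carry a CXXC domain, Fbxl19 fell by 0.50 (adjusted p 0.0129 in limma). In this list edgeR called 1 lower and DESeq2 2, and neither called any higher. At an unadjusted p under 0.05, 3 were lower and 0 higher, beside 20.4% lower among genes with a mean of at least 1000 normalised reads. Kdm2b (-0.31), Cxxc5 (-0.26) and Cxxc1 (-0.15) did not pass.

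Excision and repair genes went both ways, with 1 rise and 2 falls among 15 tested, beside 5.32% higher and 3.43% lower over all tested genes. Their median was -0.14. At an unadjusted p under 0.05, 6 were lower and 2 higher, beside 12.5% and 12.7% of all tested genes. Among genes with a mean of at least 1000 normalised reads, 20.4% were lower at that level. Parp1, for the poly(ADP-ribose) polymerase of strand-break repair, had 16782.5 ± 1753 normalised reads in wild type and 11928 ± 1317 in knockout (SD, n = 3 each; log2 fold change -0.49, SE 0.11, adjusted p 0.0233 in limma). Apex1, for the abasic-site endonuclease, fell by 0.37, and the cytidine deaminase gene Apobec1 rose by 0.85 from 65.4 ± 2.30 reads. Lig3 (-0.27) did not pass, and Tdg, for the glycosylase that follows TET, was at 0.01.

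Genes around 2-oxoglutarate gave 4 falls. Of 26 tested 4 fell and none rose in limma (3 and 0 in edgeR, 6 and 0 in DESeq2). Among genes with a mean of at least 400 normalised reads limma called 5.54% lower. At an unadjusted p under 0.05, 13 were lower and 0 higher, beside 20.4% lower among genes with a mean of at least 1000. The median was -0.23, with 24 of 26 values negative, beside a median of -0.07 and 64.3% negative among these larger genes. Ogdh, for the enzyme that consumes 2-oxoglutarate in the citric acid cycle, had 12539.6 ± 1350.3 normalised reads in wild type and 8832 ± 421 in knockout (SD, n = 3 each; log2 fold change -0.50, SE 0.09, adjusted p 0.0129 in limma). Fh1, for fumarate hydratase, which removes a competitor of 2-oxoglutarate, fell by 0.42, the citrate carrier gene Slc25a1 by 0.41, and Suclg1, for a succinate-CoA ligase subunit, by 0.28 (adjusted p 0.0613 in edgeR). In the S-adenosylmethionine cycle, which supplies the methyl group, 1 of 10 tested genes fell and none rose, in limma, edgeR and DESeq2. Ahcy, whose enzyme clears the product inhibitor S-adenosylhomocysteine, was at -0.43 (adjusted p 0.0222 in limma), and Ahcyl2 (-0.36) and Mat2b (0.14) did not pass.

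**Figure D5:**
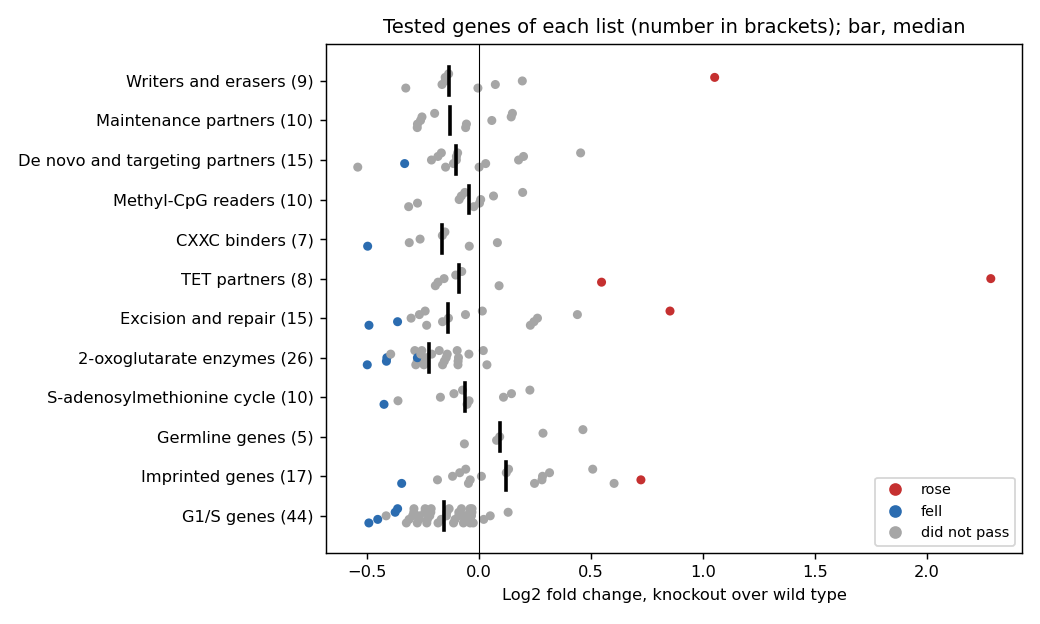
Knockout over wild type as log2 fold change, 1 point for each tested gene of 12 lists. Red points passed the test as higher, blue points as lower, grey points did not pass, and black bars are medians, which lie between -0.23 for 2-oxoglutarate genes and 0.12 for imprinted genes.

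Germline genes known to be silenced by promoter methylation and imprinted genes gave 2 calls. Both were among imprinted genes, and the count is near the 8.75% called over all genes. Of 27 listed germline genes 12 had a row in the deposited table, and only 5 had enough reads to test. None of the 5 passed in limma, edgeR or DESeq2 or at an unadjusted p under 0.05, which says nothing of the genes left untested. Brdt was at 0.28 with 532 ± 17.5 normalised reads in wild type (SD, n = 3), Ddx25 at 0.46, Piwil2 at 0.09 and Zcwpw1 at 0.08. Of 36 listed imprinted genes 20 had a row and 17 were tested, of which 1 rose and 1 fell. Cdkn1c, for an inhibitor of cyclin-dependent kinases, rose by 0.72 (adjusted p 0.0486 in limma) and Trappc9 fell by 0.35 (adjusted p 0.0457 in limma), while edgeR called neither (adjusted p 0.0514 and 0.0591) and DESeq2 called both (adjusted p 0.0102 and 0.0203), with 2 rises and 1 fall in the list. Impact (0.51) and Zrsr1 (0.31) did not pass. Methylation itself was not measured in these libraries.

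Beside Tet2, 18 genes of these pathway lists passed the test, and none of them kept its call with each library left out in turn. All 18 were lost without knockout library 3, 16 without wild-type library 1, 14 without wild-type library 3, 9 without knockout library 1, 8 without knockout library 2 and 4 without wild-type library 2. In the 11 settings that kept all libraries, 8 of the 18 were called throughout. Scaling by library totals ended 9 calls (Trim28, Apex1, Fh1, Slc25a1, Suclg1, Trappc9, Pola1, Mcm5 and Mcm6), and edgeR ended 4 (Suclg1, Trappc9, Cdkn1c and Mcm6).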

How the data were processed

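Submitters' notes name bcl2fastq 1.8.4, STAR 2.6.0a, featureCounts, DESeq2 and GRCm38 for the authors' processing. Per the labels' protocols the libraries came from an Illumina NEBNext kit and were read as pairs. Annotation, strand setting and multi-mapped reads are unknown here. The deposited values are a signal: gene read counts divided by 1 factor per library, as the values themselves show, since all were whole multiples of a step (tolerance 0.01). Of 23314 rows, 8 lacked an identifier (at most 0.00106% of reads) and were left out. The values being normalised, the main test was limma 3.58.1 (R 4.3.3, trend and robust) on log2(value + 2), for genes at 10 or more in at least 3 libraries, with group as the single term and Benjamini-Hochberg adjustment over all of them. This scale understates fold changes of low genes. edgeR 4.0.16 and DESeq2 1.42.0 used the recovered reads, and CPM used TMM factors. Positions and lengths came from GENCODE M21. The procedure was tested on simulated data. Chi-square per degree of freedom between replicates was 11.9 to 51.7, so none agreed within sampling noise. Counting error of a member was at most 4.53% (Idh1). The members, lists and motifs were chosen with earlier results of these data known. Named genes were the members, Phf6, up to 4 genes of smallest p in each pathway list, the 3 genes most like a called member, the 2 most abundant markers of each list and genes overlapping a member, of which a few are not reported here. Hells, Ogt, Tdg, Mpo, Pax5, Col1a1, the markers at 0 and the neighbours of Tet2 were chosen after their values were seen. Alternatives varied scaling, filter, pseudocount, tool, block, library, length and threshold.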

Additional observations from a re-analysis of the deposited data

How the results depend on the processing

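Tet2 was called higher in all 11 other settings of scaling, filter, pseudocount, tool and block (log2 fold change 1.05 to 1.14) and in all 6 fits that left out a library. The number of members that fell was 1 (Dnmt1) in place of 0 with DESeq2, with the replicate block and at a threshold of 0.1, and 0 to 1 over the fits that left out a library; the log2 fold change of Dnmt1 ran from -0.41 to -0.25. The other 7 members were called in none of these fits. With the replicate number as a block, 2568 genes were called in place of 1575 (1459 rose and 1109 fell). The replicate numbers do not pair the samples by the labels, and same-numbered deviations correlated at 0.01, 0.50 and 0.14 for numbers 1 to 3, where only the libraries numbered 2 correlated best with their own number. Over all genes 406 fell with upper quartile factors and 300 with library totals, in place of 618. At a threshold of 0.1, 2705 genes were called (1491 rose and 1214 fell). Leaving out a library gave 191 to 1939 calls, 134 to 1156 rises and 57 to 783 falls, lowest without knockout library 3 and highest without wild-type library 2. With the longest transcript as the length, Tet2 made up 16.7% of the TET level in wild type and 28.8% in knockout. No called result reversed its direction. For these changes the cause was not tested. The number of libraries, 3 a group, limits precision more than depth does, since each member's counting error was below its spread between libraries in both groups.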
